A study of Danio rerio with 2 samples.

Results

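S-phase endocardial cells (EdCs) at 72 hpf were the cells of the 72 hpf heart library that held transcripts of the replicative helicase but few transcripts of mitosis genes. A cell was a member with at least 5 unique molecular identifiers (UMIs, counted molecules) summed over *mcm2*, *mcm3*, *mcm4*, *mcm5* and *mcm6*, at most 3 summed over *mki67*, *top2a* and *ube2c*, at least 1 of *cdh5*, at most 1 of *alcama*, and 0 of the blood genes *myb*, *coro1a* and *slc4a1a*. This selected 454 of the 4125 cells of the library (11.0%, exact Clopper-Pearson 95% interval 10.1 to 12.0), out of 6790 cells in the whole series. Of the 2887 cells that met the *cdh5*, *alcama* and blood limits at 72 hpf, they were 15.7% (14.4 to 17.1). The 13 genes of the rule were used to choose the cells, so their values below are a description and carry no test.

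The cells came from dissected and pooled zebrafish hearts, in 1 library at 72 hpf and 1 at 48 hpf, and all fish carried the same pair of transgenes, a nuclear mCherry reporter, Tg(kdrl:nls-mCherry), together with a blood lineage reporter, Tg(cd41:GFP). Live cells with mCherry alone and cells with both mCherry and GFP were sorted and combined before droplet sequencing, so a library mixes both gates and many hearts. No treatment is named. The *kdrl* promoter drives the nuclear mCherry in endothelium and endocardium, and the sort made no use of cell cycle stage. There was 1 library per age, so age and library cannot be told apart, no comparison was tested, and every 95% interval covers counting error alone.

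DNA replication is prepared in G1, when the origin recognition complex, Cdc6 and Cdt1 load the MCM helicase onto chromatin. In S phase the loaded helicase joins Cdc45 and the GINS complex, and polymerases copy both strands behind it with the sliding clamp PCNA. New DNA is packed by histone chaperones, and its methylation is copied by Uhrf1 and Dnmt1. In the zebrafish heart, the endocardium lines the lumen of both chambers and forms the valves while the heart grows.

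The 72 hpf library held 33721297 UMIs in all, from 3293 to 46806 per cell with a median of 6316, and the 48 hpf library 30735426, from 2751 to 79992 with a median of 10411. S-phase EdCs had a median of 7890 UMIs (3330 to 23595) and 2157.5 genes. The nearest cells without the MCM transcripts were the 1894 MCM-low cells of the same library, which met the same limits but had 0 or 1 MCM UMI, with a median of 5233 UMIs and 1567 genes. The rule sets limits on UMIs, of which deep cells hold more, and how far this shaped the share of members was not tested. That share was 2.22%, 6.94%, 22.4% and 31.3% over 4 classes of gated cells of equal size, from the shallowest to the deepest. After each cell was thinned to 2500 UMIs, with at least 2 MCM and at most 1 mitosis UMI asked, these shares were 4.57%, 8.47%, 23.4% and 26.6%, and the share over all gated cells was 15.8%. The share of S-phase cells was therefore larger among deep cells also at a fixed number of UMIs. No doublet caller was run, and values without the 5% deepest members are part of the alternatives. The libraries shared 4 cell barcodes, of which 1 belonged to a member.

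The sum of the MCM UMIs ran from 5 to 40 in S-phase EdCs, with quartiles of 6, 9 and 13. Of the members, 67 stood at the limit of 5, and 84 gated cells stood just outside it at 4. The members at 5 had 557 CPM of *pcna* and 113 CPM of *hells*, and the cells at 4 had 518 and 93.2 CPM, where CPM is the gene's share of all UMIs pooled over a group, per 1000000. The limit thus cuts through a continuous range. The mitosis genes summed to 0 in 411 members, and 23 gated cells with enough MCM UMIs were left out by that limit. These 23 cells had 1188 CPM of *rrm2* and 1483 CPM of *pcna*. A further 159 cells met the MCM and mitosis limits but held a UMI of a blood gene, 68 had *alcama* at 2 or more, and 21 lacked *cdh5*.

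**Figure D1:**
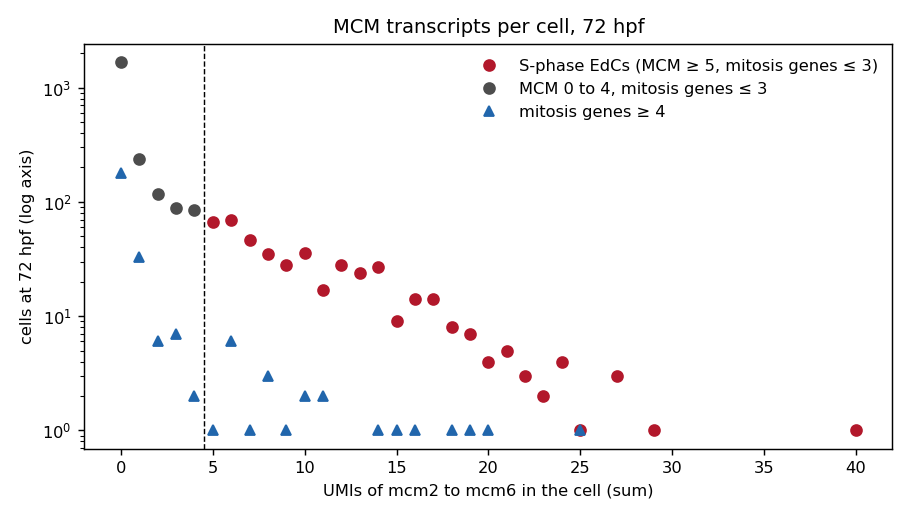
Number of gated 72 hpf cells (vertical, log axis) by the summed UMIs of *mcm2* to *mcm6* (horizontal), for S-phase EdCs, other cells under the mitosis limit, and cells with 4 or more mitosis UMIs. The dashed line is the limit of 5, and the counts fall across it with no gap (84 cells at 4 and 67 at 5).

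The marker *mcm5* (ENSDARG00000019507) had 0 to 15 UMIs per member with a median of 2, and *mcm2* (ENSDARG00000102798) had 0 to 12 with a median of 2. Pooled, *mcm5* stood at 273 CPM in S-phase EdCs, 4.59 in MCM-low cells, 23.4 in the 250 mitotic cells of the library and 336 in the 522 cells chosen by the same thresholds at 48 hpf. The levels of *mcm2*, *mcm3*, *mcm4* and *mcm6* lay between 183 and 297 CPM in S-phase EdCs, against 1.93 to 5.79 CPM in MCM-low cells. All of this follows from the rule.

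The name was checked against genes outside the rule. Of the S-phase list of Tirosh and colleagues under zebrafish names, without the rule genes, a member held a median of 7 UMIs at 2500 UMIs per cell. A mitotic cell, with 4 or more mitosis UMIs, held 5.5 and an MCM-low cell 0. The means were 8.07, 9.84 and 0.669, and the pooled sums 3298, 3793 and 273 CPM. Against mitotic cells, 8 of 36 genes of the list were at least 2-fold higher and 7 lower, beside 5.84% and 6.94% of all genes. The list thus set members apart from MCM-low cells and not from mitotic cells. Of its 32 genes at 10 CPM, 31 were at least 2-fold higher in S-phase EdCs than in MCM-low cells, against 7.76% of all genes compared, and 22 of the 32 reached 10 CPM through the S-phase EdCs alone. Of the corresponding G2/M list, with 7 of 18 genes at least 2-fold higher, a member held 13, an MCM-low cell 8 and a mitotic cell 53. Endothelial identity was present: *kdrl* (ENSDARG00000105215), a receptor for vascular endothelial growth factor, stood at 515 CPM in S-phase EdCs and 511 in MCM-low cells, and *egfl7*, a secreted endothelial factor, at 635 and 724 CPM. In the 284 cells of the library with 5 or more UMIs of the blood genes, which have a median of 21663 UMIs, *kdrl* was at 4.11 CPM and *egfl7* at 10.1 CPM.

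Blood, epicardial and mural markers were low, and cardiomyocyte and valve interstitial genes were present at like sums in both groups. The 12 listed blood genes outside the rule summed to 20.0 CPM in S-phase EdCs and 22.4 in MCM-low cells, and none reached the minimum for comparison. In S-phase EdCs *itga2b*, *ptprc*, *mpeg1.1* and *mpx* were at 0. The 6 epicardial and mural genes summed to 2.82 CPM in S-phase EdCs and 8.08 in MCM-low cells, and *tcf21*, *wt1a*, *tbx18*, *acta2* and *tagln* were at 0 in S-phase EdCs. The 10 cardiomyocyte genes summed to 779 CPM in S-phase EdCs and 878 in MCM-low cells, of which *tpm4a*, a tropomyosin gene, made up 665 and 728 CPM, and *myh6* was at 0 in both. The 9 valve interstitial genes summed to 1093 CPM in S-phase EdCs and 1072 in MCM-low cells. Cells with 5 or more UMIs over *angptl7*, *postnb*, *tfa*, *rspo1* and *spp1* were 23 members (5.07%) and 80 MCM-low cells (4.22%). These are called cells with interstitial genes below, and leaving them out is an alternative chosen after seeing the data.

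Against MCM-low cells, 6905 genes outside the rule reached 10 CPM in either group. Of these 536 (7.76%) were at least 2-fold higher in S-phase EdCs and 123 (1.78%) at least 2-fold lower, and the median log2 ratio of all of them was -0.01. Because the cells were chosen on MCM transcripts, the counts for replication genes are read as a description of what goes with those transcripts. Many of these genes reached 10 CPM through the S-phase EdCs alone and so had to differ, and the replication lists are therefore also counted over all of their genes found, with no minimum. Over all genes with no minimum, 4893 of 20204 were at least 2-fold higher and 1121 lower, with a zero set to a floor of 3 UMIs. The lists and their members were set with earlier results of these data known.

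**Figure D2:**
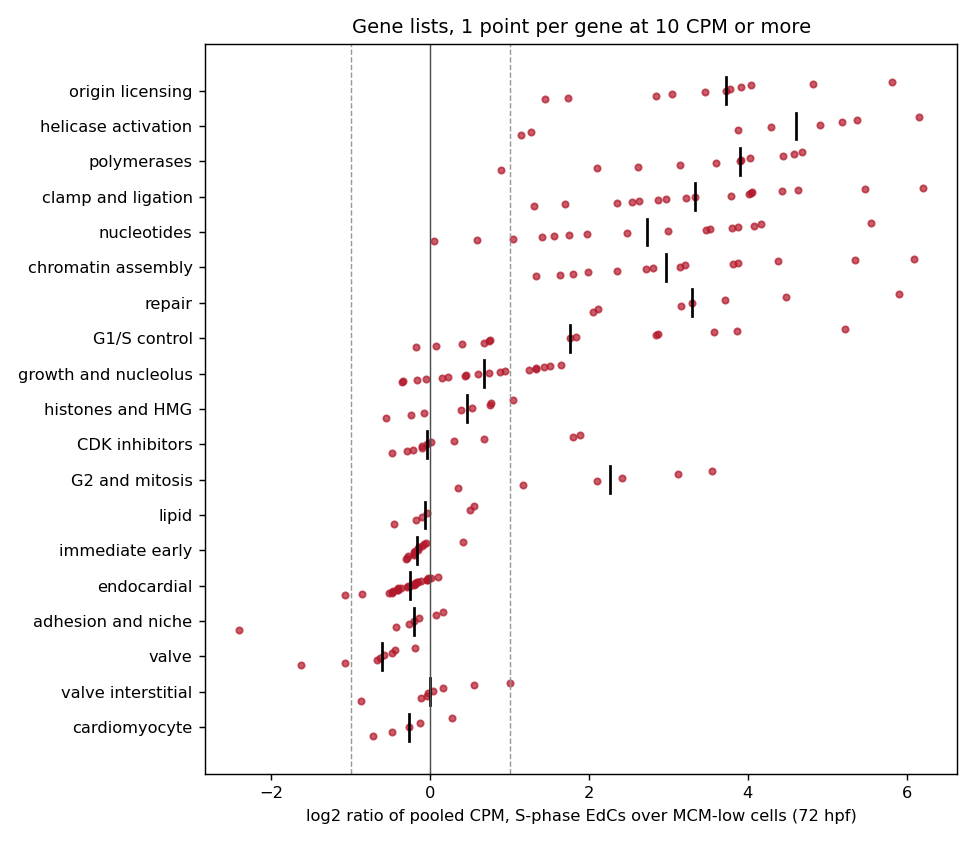
Log2 ratio of pooled CPM in S-phase EdCs over MCM-low cells at 72 hpf (horizontal), with 1 point per listed gene at 10 CPM or more, a black bar at the list's median and dashed lines at 2-fold. The replication lists lie to the right with medians from 2.73 to 4.60. The endocardial, immediate early and lipid lists have medians of -0.25, -0.17 and -0.07.

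Origin licensing genes were higher throughout. All 14 found were at least 2-fold higher in S-phase EdCs, and the 11 that reached 10 CPM, each through the S-phase EdCs alone, had a median log2 ratio of 3.72. The highest ratio belonged to *orc6* (ENSDARG00000075682), a subunit of the origin recognition complex, at 41.5 CPM in S-phase EdCs and 0.735 in MCM-low cells (log2 5.82, 4.81 to 7.06). *orc1*, the large subunit of that complex, was at 20.7 and 0.735 CPM, and the loader *cdc6* (ENSDARG00000009942) at 40.2 and 2.66 CPM. *mcm7* (ENSDARG00000101180), the helicase subunit that the rule leaves out, was at 114 CPM in S-phase EdCs and 6.98 in MCM-low cells (log2 4.04, 3.68 to 4.41). The loader *cdt1* and its inhibitor *gmnn*, which blocks loading once replication has begun, had the smallest ratios of the list. *cdt1* was at 15.6 CPM in S-phase EdCs and 4.68 in MCM-low cells (log2 1.74), and *gmnn* at 22.3 and 8.17 CPM (log2 1.45).

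Genes that turn the loaded helicase on had ratios of a similar size. All 11 found were at least 2-fold higher, and the 8 at 10 CPM, each by the S-phase EdCs alone, had a median log2 ratio of 4.60. *gins2* (ENSDARG00000002304), a subunit of the GINS complex, was at 65.6 CPM in S-phase EdCs and 0.918 in MCM-low cells (log2 6.16, 5.26 to 7.24), the highest ratio among the genes at 50 CPM with a UMI in 20% of the cells. *gins4* was at 45.6 and 1.1 CPM, and *cdc45*, the other partner of the MCM ring, at 13.8 and 0.459 CPM. The fork protection pair had the lowest ratios. *timeless* was at 20.7 CPM in S-phase EdCs and 9.37 in MCM-low cells (log2 1.15, and 0.80 after matching on UMIs), and *tipin* at 17.9 and 7.44 CPM.

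Of the 11 polymerase and primase genes, 10 were at least 2-fold higher, with a median log2 ratio of 3.91. *pola1* (ENSDARG00000045308), the catalytic subunit that starts each strand, was at 55.1 CPM in S-phase EdCs and 3.67 in MCM-low cells. *pold1*, of the polymerase known for the lagging strand, was at 59.9 and 4.96 CPM. *pole*, of the polymerase known for the leading strand, was at 28.2 and 1.1 CPM. The remaining gene, *pole3*, whose product is also a subunit of a chromatin remodeller, was at 42.3 CPM in S-phase EdCs and 22.8 in MCM-low cells (log2 0.89, 0.60 to 1.18).

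The clamp, its loader and the enzymes that join Okazaki fragments were higher without exception. All 18 found were at least 2-fold higher, and 17 reached 10 CPM with a median log2 ratio of 3.34. *pcna* (ENSDARG00000054155) had 0 to 51 UMIs per member with a median of 5.5, against 0 to 25 with a median of 0 in MCM-low cells. Its pooled level was 911 CPM in S-phase EdCs and 56.3 in MCM-low cells (log2 4.02, 3.89 to 4.14). The ranges overlap, since single members held no *pcna* UMI and single MCM-low cells held many. The flap nuclease *fen1* was at 174 and 10.5 CPM, the ligase *lig1* at 93.5 and 3.77 CPM, and the single-strand binding protein *rpa3* at 172 and 7.99 CPM. *chtf18*, of the alternative clamp loader, was at 13.6 CPM in S-phase EdCs and 0.184 in MCM-low cells on 53 and 2 UMIs, and its log2 ratio of 6.21 had an interval of 4.28 to 9.29. *rfc1*, the large subunit of the usual loader, had the lowest ratio, at 34.3 and 13.9 CPM.

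Nucleotide synthesis genes were at least 2-fold higher for 16 of 18 found, and 11 of the 16 at 10 CPM passed through the S-phase EdCs alone. *tyms* (ENSDARG00000042894), which makes thymidylate, was at 51.5 CPM in S-phase EdCs and 1.1 in MCM-low cells (log2 5.55, 4.71 to 6.52). *rrm1*, the large subunit of ribonucleotide reductase, was at 124 and 7.35 CPM, and *rrm2*, its small subunit under a symbol shared by 2 gene IDs, at 145 and 10.4 CPM. *tk1*, the salvage kinase for thymidine, had 25 UMIs in S-phase EdCs and 0 in MCM-low cells, which is at least 23.2-fold higher against a floor of 3 UMIs over the group. The 2 under the limit were *nme2b.1*, a nucleoside diphosphate kinase, and *paics*, of purine synthesis. *nme2b.1* was at 2007 CPM in S-phase EdCs and 1944 in MCM-low cells, and *paics* at 27.2 and 18.0 CPM.

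Chromatin assembly and maintenance genes were all at least 2-fold higher, 14 of 14, with a median log2 ratio of 2.97. The marker *hells* (ENSDARG00000057738), a remodeller needed for DNA methylation, had 0 to 10 UMIs per member with a median of 2, and 0 to 3 with a median of 0 in MCM-low cells. Pooled, it was at 217 CPM in S-phase EdCs and 15.4 in MCM-low cells (log2 3.82, 3.58 to 4.06). Its partner *cdca7a* (ENSDARG00000077620), which recruits it to chromatin in vertebrates, was at 152 and 2.48 CPM (log2 5.94, 5.38 to 6.55). *uhrf1* was at 123 and 18.6 CPM, and *dnmt1* at 72.2 and 8.17 CPM. Among the histone chaperones, *chaf1b* was at 31.2 CPM in S-phase EdCs and 0.459 in MCM-low cells, *asf1ba* at 63.5 and 1.56 CPM, and *nasp* at 219 and 10.6 CPM. *supt16h*, of the FACT complex that also serves transcription, had the lowest ratio, at 97.8 and 38.9 CPM. Among genes named by size alone, *pclaf*, whose product binds PCNA, was at 103 CPM in S-phase EdCs and 3.58 in MCM-low cells. The uncharacterised gene *si:ch211-156b7.4* (ENSDARG00000101707) was at 158 and 8.17 CPM (log2 4.27, 3.95 to 4.61).

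Genes of chromatin proteins that are not part of assembly stood apart from that pattern. Of the 8 found of the list of histones and high-mobility-group genes, 1 was at least 2-fold higher, *hist1h4l*, a core histone under a symbol shared by 24 IDs, at 49.2 CPM in S-phase EdCs and 23.8 in MCM-low cells, a log2 ratio of 1.05 that was 0.90 after matching on UMIs. Replication-dependent histone transcripts lack a poly(A) tail, and a 3′ kit captures them poorly. *hmgb2a*, *hmgb2b* and *hmga1a* were at a higher level by less than 2-fold, with log2 ratios of 0.53 to 0.77. *hmgn2* (ENSDARG00000099572), which binds nucleosomes, was lower, at 1343 CPM in S-phase EdCs and 1981 in MCM-low cells (log2 -0.56, -0.60 to -0.52), with -0.25 against MCM-low cells matched on UMIs. Linker histones were lower by more. *histh1l* (ENSDARG00000035519) was at 105 CPM in S-phase EdCs, 412 in MCM-low cells and 891 in mitotic cells (log2 -1.97 against MCM-low cells, -2.12 to -1.83). *h1-10* (ENSDARG00000054058) was at 214, 522 and 1376 CPM in the same order, with a log2 ratio to MCM-low cells of -1.29 that was -0.88 after matching on UMIs. Both of these linker histone genes were thus lowest in S-phase EdCs among these groups of the 72 hpf library.

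Repair and checkpoint genes were low in level and higher in ratio. Of 16 found, 15 were at least 2-fold higher, but only 7 reached 10 CPM, all through the S-phase EdCs. The mismatch repair gene *msh6* (ENSDARG00000104541) was at 61.2 CPM in S-phase EdCs and 2.76 in MCM-low cells (log2 4.47, 3.92 to 5.07). The checkpoint kinase *chek1* was at 11.0 CPM in S-phase EdCs and 0.184 in MCM-low cells on 43 and 2 UMIs (log2 5.91, 3.97 to 9.0).

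Regulators of G1/S were mixed. Of 18 found, 10 were at least 2-fold higher. The E-type cyclins that drive S phase entry were low in both groups, *ccne1* at 12.0 CPM in S-phase EdCs and 0.827 in MCM-low cells, and *ccne2* at 9.73 and 0.827 CPM. Their partner *cdk2* was at 58.4 and 7.99 CPM. The pocket proteins *rbl1* (ENSDARG00000008141) and *rb1*, which hold E2F factors in check, were also higher, *rbl1* at 25.1 CPM in S-phase EdCs and 3.49 in MCM-low cells and *rb1* at 48.4 and 13.6 CPM. D-type cyclins differed by less than 2-fold, *ccnd1* at 100 and 60.1 CPM and *ccnd2a* at 62.0 and 38.8 CPM. Their kinase *cdk6* was at 16.1 and 18.2 CPM. Of the 39 G2 and mitosis genes, 6 reached 10 CPM and 5 of these were at least 2-fold higher, 4 of the 6 through the S-phase EdCs alone. With no minimum, 20 of the 39 were at least 2-fold higher and 6 lower, beside 4893 and 1121 of all 20204 genes. *smc2*, of condensin, was at 32.3 CPM in S-phase EdCs, 2.76 in MCM-low cells and 318 in mitotic cells, and *aurkb*, a mitotic kinase, at 13.6, 1.56 and 401 CPM. *cdk1*, the mitotic kinase partner of cyclin B, stayed at 4.35 CPM in S-phase EdCs and 1.19 in MCM-low cells, against 365 CPM in mitotic cells.

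Of 15 genes of CDK inhibitors and antiproliferative factors, 2 of the 11 at 10 CPM were at least 2-fold higher, and the list's median log2 ratio was -0.04. *cdkn1a* (ENSDARG00000076554), which encodes p21 and binds both CDKs and PCNA, had 0 to 30 UMIs per member with a median of 1, and 0 to 9 with a median of 0 in MCM-low cells. Its pooled level was 190 CPM in S-phase EdCs, 54.6 in MCM-low cells and 474 in mitotic cells (log2 1.80 against MCM-low cells, 1.64 to 1.96). *cdkn1cb*, a p57 gene, was at 27.2 CPM in S-phase EdCs and 7.35 in MCM-low cells. *cdkn1bb*, a p27 gene, was at 133 and 186 CPM, and *btg2* at 1592 and 1634 CPM. Apart from *cdkn1a* and *cdkn1cb*, the listed genes at 10 CPM differed by less than 2-fold. Among them *mdm2* was at 16.4 CPM in S-phase EdCs and 16.3 in MCM-low cells (log2 0.01, and -1.48 after thinning), and *ccng1* at 654 and 531 CPM.

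Of 19 growth genes found, 6 were at least 2-fold higher and none lower, with a median log2 ratio of 0.67 over the 18 at 10 CPM. *npm1a* (ENSDARG00000014329), a nucleolar chaperone, had 0 to 40 UMIs per member with a median of 5, and 0 to 16 with a median of 1 in MCM-low cells. Its level was 709 CPM in S-phase EdCs, 227 in MCM-low cells and 213 in mitotic cells (log2 1.64 against MCM-low cells, 1.57 to 1.72). The others were *dkc1* at 163 CPM in S-phase EdCs and 57.2 in MCM-low cells, *nop2* at 99.9 and 36.8 CPM, *fbl* at 197 and 78.3 CPM, *nop58* at 290 and 115 CPM, and *odc1*, of polyamine synthesis, at 103 and 43.3 CPM. Further nucleolar genes of the list were under 2-fold, *ncl* at 910 CPM in S-phase EdCs and 473 in MCM-low cells, *nop56* at 395 and 216 CPM and *polr1a* at 28.9 and 19 CPM. *mycb* was at 540 CPM in S-phase EdCs and 603 in MCM-low cells, and *mycn* at 229 and 238 CPM.

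**Figure D3:**
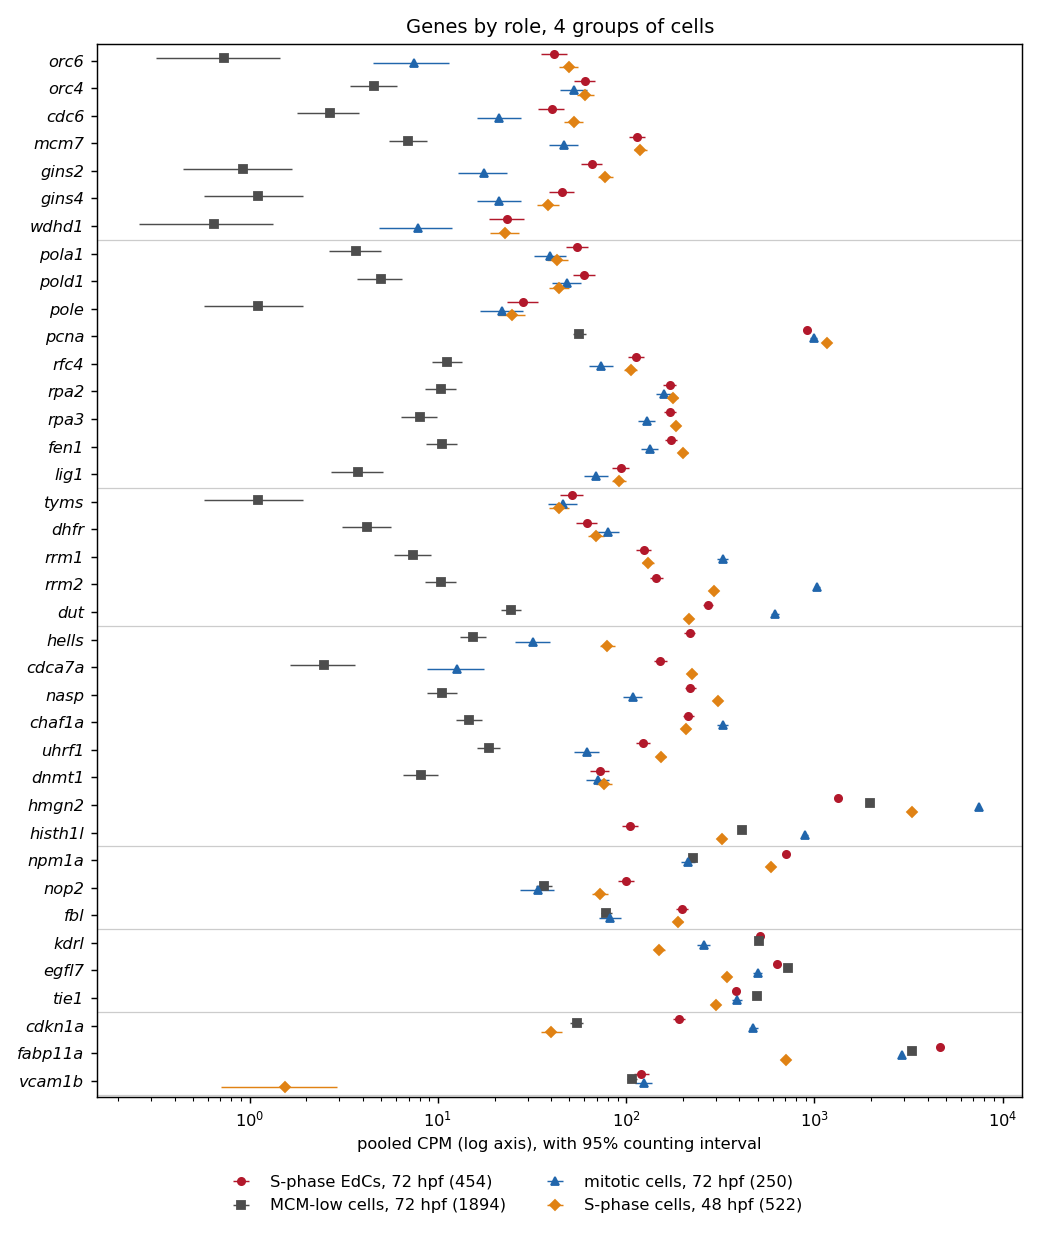
Pooled CPM (horizontal, log axis) with 95% counting intervals for genes by role (vertical), in S-phase EdCs at 72 hpf, MCM-low and mitotic cells at 72 hpf, and S-phase cells at 48 hpf. S-phase EdCs and 48 hpf S-phase cells lie close for most of the replication genes shown, *hells* (217 and 79.4 CPM) and *rrm2* (145 and 292 CPM) differ by 2-fold, and *rrm2* lies highest in mitotic cells (1034 CPM).

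Genes at least 2-fold lower in S-phase EdCs were fewer. Outside the linker histones, the genes with the lowest ratios at 50 CPM included *gpm6ab*, a membrane glycoprotein gene, at 27.7 CPM in S-phase EdCs and 137 in MCM-low cells (log2 -2.31), and *glulb*, a glutamine synthetase, at 74.5 and 217 CPM (log2 -1.54). *hbp1*, a repressor known to restrain the cell cycle, was at 20.5 and 62.4 CPM (log2 -1.61), and *ccng2*, a cyclin linked to arrest, at 56.9 and 126 CPM (log2 -1.15). The gene ENSDARG00000102572, which has only a clone-based name, was at 23.1 and 67.8 CPM (log2 -1.56), and the cytochrome P450 gene *cyp3c1* at 51.0 and 114 CPM (log2 -1.16, and -0.97 after matching on UMIs). *abca1a*, a cholesterol exporter, was at 41.8 and 93.6 CPM (log2 -1.16), and *swap70b* at 33.6 and 69.1 CPM (log2 -1.04, and -0.68 after thinning).

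A lymphatic gene set moved with some of these. The 76 MCM-low cells with 3 or more UMIs of *lyve1a*, *lyve1b* and *flt4* held 52.1% of the MCM-low UMIs of *gpm6ab* and 51.1% of those of *dab2*. They held 43.2% of those of *lgmn* and 42.9% of those of *cpn1*. The set was also met by 1 member. An alternative chosen after seeing the data left out the 76 cells and this member. The log2 ratio was then -1.48 for *gpm6ab*, -0.64 for *dab2* (-1.49 with them), -0.38 for *lgmn* (-1.11), -0.60 for *cpn1* (-1.25) and -0.52 for *id1* (-1.06). It was -0.88 for *abca1a* and -0.93 for *swap70b*. The ratios of *histh1l* (-1.96), *h1-10* (-1.35), *hbp1* (-1.47), *glulb* (-1.34) and *ccng2* (-1.12) stayed beyond 2-fold without these cells. The count of genes at least 2-fold lower was 89 without them. *lyve1a* itself was at 7.94 CPM in S-phase EdCs and 208 in MCM-low cells.

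The marker *fabp11a* (ENSDARG00000017299), a fatty acid binding protein gene, did not mark S phase the way *hells* did. It had 0 to 328 UMIs per member with a median of 28, and 0 to 186 with a median of 11 in MCM-low cells, so the ranges overlapped throughout. Its level was 4660 CPM in S-phase EdCs, 3298 in MCM-low cells and 2905 in mitotic cells (log2 0.50 against MCM-low cells, 0.47 to 0.52). A UMI was present in 89.9% of S-phase EdCs and 83.4% of MCM-low cells, or 85.0% and 77.8% after thinning. In the blood cells, at a median of 21663 UMIs, it was present in 40.1% at 131 CPM. Against the 289 gated cells with 2 to 4 MCM UMIs the log2 ratio was 0.07, and against MCM-low cells matched on UMIs it was 0.73. The other 5 lipid genes at 10 CPM also differed by less than 2-fold.

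Within the S-phase EdCs *fabp11a* varied with the regional genes. In the members with 3 or more UMIs of the set *vcam1b*, *basp1* and *loxl1* it was at 6861 CPM, against 5084 CPM in MCM-low cells with that set. With the set *cdh4*, *gstm.3*, *esr1* and *postna* it was at 3246 CPM in S-phase EdCs and 1969 in MCM-low cells. With the set *cfd*, *c2cd4a* and *emid1* it was lower in S-phase EdCs, at 526 CPM in 23 members and 760 CPM in 127 MCM-low cells. With the set *lhx8a*, *cxcr4a* and *oaz2b* it was at 25.1 CPM in 13 members and 330 CPM in 24 MCM-low cells, and the first of these rests on 4 UMIs. Over the same sets *hells* lay between 176 and 276 CPM in S-phase EdCs, leaving out the lymphatic set with its single member, and between 7.49 and 19.7 CPM in MCM-low cells.

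Most endocardial identity genes were lower than in MCM-low cells by less than 2-fold. Of 27 at 10 CPM, 25 were below their level in MCM-low cells and 2 above it, with a median log2 ratio of -0.25. None was at least 2-fold higher and 1 was at least 2-fold lower. The 2 above were *hapln1b* and *kdrl*. *hapln1b*, a matrix gene of the cardiac jelly, was at 596 CPM in S-phase EdCs and 558 in MCM-low cells, *tie1* at 385 and 497 CPM, *nfatc1* at 61.5 and 70.0 CPM, and *pecam1* at 158 and 208 CPM. The gene at least 2-fold lower was *nrg1*, at 15.6 and 32.9 CPM, and its log2 ratio of -1.07 was -0.26 without the cells with interstitial genes. Of 8 valve genes 2 were at least 2-fold lower, of 7 adhesion and niche genes 1, and of 8 valve interstitial and 5 cardiomyocyte genes none differed by 2-fold. Over all genes compared, 1.78% were at least 2-fold lower. Against MCM-low cells matched on UMIs, 6 of 8 valve genes (median log2 ratio -1.06), 3 of 5 cardiomyocyte genes (-1.33), 2 of 8 valve interstitial genes and 2 of 28 endocardial genes were at least 2-fold lower. Over all genes of the matched comparison, 257 of 7043 were. *spp1*, one of the genes that chose the cells with interstitial genes, was at a log2 ratio of -1.62 with them and -0.06 without. The adhesion ligand gene *vcam1b* (ENSDARG00000062479), whose product holds blood stem cells in zebrafish niches, had 0 to 12 UMIs per member with a median of 0. It was at 120 CPM in S-phase EdCs and 107 in MCM-low cells (log2 0.16, 0.00 to 0.32), and at 0.73 on the log2 scale against MCM-low cells matched on UMIs. A UMI of *vcam1b* was present in 36.1% of S-phase EdCs and 25.9% of MCM-low cells (21.1% and 16.7% thinned), and in 2.82% of blood cells. The niche chemokine *cxcl12a* was at 2.82 CPM in S-phase EdCs and 14.9 in MCM-low cells, a log2 ratio of -2.40 that was -1.42 without cells of the lymphatic set.

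Genes of the dissociation response were close in both groups. Of 14 immediate early and heat shock genes, none differed by 2-fold, with a median log2 ratio of -0.17. *fosab* was at 2839 CPM in S-phase EdCs and 3047 in MCM-low cells, and *hsp70l* at 1378 and 1680 CPM. The median mitochondrial share of UMIs was 0.382% in S-phase EdCs and 0.363% in MCM-low cells.

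Levels went with the number of MCM UMIs, which the rule used. Over gated cells with 0 to 1, 2 to 4, 5 to 9, 10 to 19 and 20 to 40 MCM UMIs, *pcna* was at 56.3, 341, 677, 1125 and 1267 CPM. Median depth also grew over these classes, at 5233, 6644, 7308.5, 8333 and 12009.5 UMIs. *hells* was at 15.4, 64.3, 152, 269 and 371 CPM, and *npm1a* at 227, 468, 621, 733 and 1170 CPM. *histh1l* ran the other way, at 412, 157, 106, 117 and 31.2 CPM. *fabp11a* had no such order, at 3298, 4437, 4380, 5235 and 3255 CPM, and the last class held 24 cells.

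The size of the ratios depended on the reference cells, and the direction of ratios of at least 2-fold rarely did. Against the 289 cells with 2 to 4 MCM UMIs, the log2 ratio was 1.76 for *hells*, 1.42 for *pcna*, 0.99 for *cdkn1a*, 0.60 for *npm1a* and -0.58 for *histh1l*. In that comparison 11 of 14 chromatin assembly genes, 5 of 11 licensing genes and none of 18 growth genes were at least 2-fold higher. Over all of its genes, 162 of 6845 were. Against MCM-low cells matched on UMIs, the counts for these lists were 14, 11 and 6, beside 489 of all 7043 genes. The list counts were the same against all MCM-low cells, matched or not. After matching the log2 ratio was 6.95 for *gins2*, 4.85 for *rrm2*, 3.14 for *rrm1*, 4.80 for *tyms*, 5.26 for *cdca7a* and 3.31 for *rpa2*. After thinning it was 6.31 for *orc1*, 3.25 for *cdc6*, 1.11 for *cdt1*, 6.15 for *gins4* and 5.52 for *pole*. These replication genes thus stayed beyond 2-fold, with shifts of over 1.5 times in either direction.

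S-phase EdCs were not uniform in *rrm2* and in the genes that went with it. *rrm2* had a UMI in 121 members (26.7%), with 1 to 36 per cell, and none in the other 333, and this split was chosen after its values were seen. The cells with and without it had medians of 9036 and 7517 UMIs and MCM levels of 1264 and 1150 CPM. Of 6982 genes, 4.02% were at least 2-fold higher and 2.35% at least 2-fold lower in the cells with *rrm2*. At least 2-fold higher in them were 13 of 15 genes of the G2 and mitosis list at 10 CPM, 9 of 11 polymerase genes and 8 of 10 helicase activation genes. Of the 15 G2 and mitosis genes, 12 reached 10 CPM through the cells with *rrm2* alone and so had to be higher. The same held for 1 of the 11 polymerase, 4 of the 10 helicase activation and 2 of the 13 licensing genes. Of the licensing list 5 of 13 genes were at least 2-fold higher, and of the growth list 0 of 18. Markers of other cells and regions were mixed. At least 2-fold lower in the cells with *rrm2* were 3 of 5 cardiomyocyte genes (median log2 ratio -1.02), 3 of 8 valve interstitial genes (-0.78) and 2 of 4 genes of the *cdh4* set. Of these lists 1, 2 and 1 genes reached 10 CPM through the cells without *rrm2* alone. These are pooled levels, and a few cells can carry them. The valve interstitial gene *angptl7* was at 67.6 CPM with *rrm2* and 218 without. It had a UMI in 7 cells (5.79%) and 19 cells (5.71%), so the share of cells was alike. At least 2-fold higher were 1 of the 5 cardiomyocyte genes, 2 of 8 valve genes, with 1 lower, and 2 of 3 genes of the *lhx8a* set. Of those 3, 2 reached 10 CPM through the cells with *rrm2* alone. The part of such cells in the split was not tested.

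Single genes showed the same division. *rrm1* was at 289 CPM in cells with *rrm2* and 53.0 in cells without, and *dut*, which removes dUTP, at 661 and 105 CPM. *pclaf* was at 263 and 34.4 CPM, the histone chaperone *asf1ba* at 156 and 24.1 CPM, and the condensin subunit *smc2* at 78.8 and 12.4 CPM. *slbp*, which binds histone mRNA, was at 63.4 CPM in cells with *rrm2* and 12.8 in cells without, and *hist1h4l* at 116 and 20.8 CPM. *cdkn1a* was at 348 and 123 CPM, and *pcna* at 1545 and 640 CPM. By contrast *hells* was at 239 CPM in cells with *rrm2* and 208 in cells without, *cdca7a* at 182 and 139 CPM, *npm1a* at 732 and 699 CPM, and *fabp11a* at 4822 and 4591 CPM. *histh1l* was lower in the cells with *rrm2*, at 59.1 CPM against 125 CPM.

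**Figure D4:**
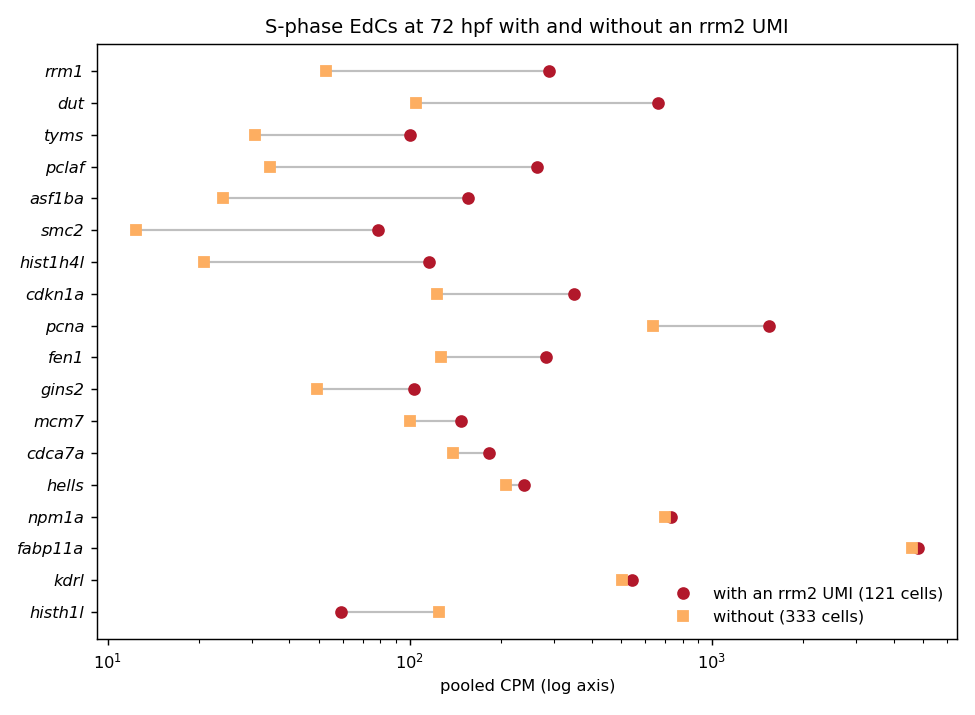
Pooled CPM (horizontal, log axis) of 18 genes (vertical) in the 121 S-phase EdCs with an *rrm2* UMI (circles) and the 333 without (squares), joined by a line. *pclaf* (263 and 34.4 CPM) and *rrm1* (289 and 53.0 CPM) lie far apart, and *hells*, *npm1a*, *fabp11a* and *kdrl* lie close together.

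The 250 mitotic cells met the same *cdh5*, *alcama* and blood limits and had a median of 9897.5 UMIs. They held 4 or more UMIs of *mki67*, *top2a* and *ube2c*, and the name rests on these UMIs alone. No limit was set on their MCM UMIs, and 23 of them held 5 or more. After thinning, they had quartiles of 2, 5.5 and 16 UMIs of the S-phase list of Tirosh and colleagues. Those of S-phase EdCs were 4, 7 and 11. How far the mitotic cells mix S, G2 and M phase was not tested. Of 7144 genes, 417 (5.84%) were at least 2-fold higher in S-phase EdCs than in mitotic cells and 496 (6.94%) at least 2-fold lower. This comparison and the one with MCM-low cells share the S-phase EdCs. Of the 38 G2 and mitosis genes at 10 CPM, all 38 were at least 2-fold lower, from a log2 ratio of -10.37 for the kinetochore gene *cenpf* to -2.14 for the checkpoint gene *bub3*. The mitosis limit of the rule fixes much of this, and 32 of the 38 reached 10 CPM through the mitotic cells alone and so had to be lower. *cenpf*, on 1 UMI, was at 0.256 CPM in S-phase EdCs and 338 in mitotic cells, with an interval of the log2 ratio from -15.67 to -7.88, *aspm* at 0.512 and 434 CPM, *cdc20* at 0.512 and 259 CPM, *hmmr* at 0.256 and 105 CPM and *si:ch211-69g19.2* at 1.02 and 346 CPM.

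Counts of replication genes differed by list in this comparison. None of 11 polymerase genes and none of 18 clamp genes differed by 2-fold between S-phase EdCs and mitotic cells, with *pcna* at 911 and 991 CPM and *pold1* at 59.9 and 48.4 CPM. After thinning, 2 of the 18 clamp genes were at least 2-fold higher and 4 lower, beside 785 and 746 of all 7186 genes. Against mitotic cells with 10 or more mitosis UMIs 3 clamp genes and 1 polymerase gene were higher, beside 552 of all 7143 genes. Of 12 licensing genes 5 were at least 2-fold higher in S-phase EdCs and 1 lower, and of 11 helicase activation genes 3 were higher and 3 lower, with a median log2 ratio of -0.61. Of the 12 licensing genes, 5 reached 10 CPM through the S-phase EdCs alone and 1 through the mitotic cells alone. Of the 11 helicase activation genes, 1 and 3 did. The direction of such genes was fixed by the minimum. Among the licensing and helicase activation genes at least 2-fold higher were *orc1* (20.7 and 1.12 CPM), *orc6* (41.5 and 7.44 CPM), *mcmbp* (47.6 and 7.44 CPM), *mcm7* (114 and 46.5 CPM) and *gins2* (65.6 and 17.5 CPM). *cdca7a*, at 152 CPM in S-phase EdCs and 12.7 in mitotic cells (log2 3.59, 3.09 to 4.13), and *hells*, at 217 and 32.0 CPM (log2 2.76, 2.44 to 3.1), had the highest ratios of the genes at 50 CPM. The pocket protein gene *rbl1* was at 25.1 and 2.23 CPM.

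Of 17 nucleotide synthesis genes, 6 were at least 2-fold lower in S-phase EdCs and 2 higher. Of the 17, 3 reached 10 CPM through the S-phase EdCs alone and 1 through the mitotic cells alone. *rrm2* was at 145 CPM in S-phase EdCs and 1034 in mitotic cells (log2 -2.83, -2.97 to -2.70), *rrm1* at 124 and 326 CPM, and *dut* at 272 and 616 CPM. *dbf4*, which activates the kinase that fires origins, was at 8.20 and 38.0 CPM, and *ticrr*, needed for helicase activation, at 3.33 and 20.5 CPM. Of 8 histone and high-mobility-group genes, 6 were at least 2-fold lower, such as *hmgn2* at 1343 CPM in S-phase EdCs and 7516 in mitotic cells. Of the 18 growth genes at 10 CPM, 8 were at least 2-fold higher in S-phase EdCs than in mitotic cells, and *pdcd11* (56.3 and 11.5 CPM) and *rcl1* (53.3 and 12.3 CPM), both of ribosomal RNA processing, were among the 5 genes with the highest ratios at 50 CPM. The fifth of these was *hist2h2l*, at 202 and 49.5 CPM. None of 27 endocardial genes differed by 2-fold, and *kdrl* was close to it at 515 CPM in S-phase EdCs and 258 in mitotic cells. Against mitotic cells with 10 or more mitosis UMIs 2 of the 27 were at least 2-fold higher, beside 552 of all 7143 genes. After thinning 1 was, beside 785 of 7186, and without the deepest members 1 was, beside 453 of 7179.

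The same thresholds at 48 hpf selected 522 of 1307 gated cells (39.9%, 37.3 to 42.7), against 15.7% at 72 hpf. The *cdh5*, *alcama* and blood limits kept 70.0% of the 72 hpf library and 49.0% of the 48 hpf library. Whether they kept like cells at both ages was not tested. Thinned to 2500 UMIs, the share was 15.8% at 72 hpf and 36.1% at 48 hpf. Of 6823 genes, 762 (11.2%) were at least 2-fold higher in 72 hpf than in 48 hpf S-phase cells and 330 (4.84%) at least 2-fold lower, with a median log2 ratio of 0.10 over all of them. The cells at 48 hpf were deeper, with a median of 10797 UMIs against 7890 at 72 hpf.

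Most replication genes differed by less than 2-fold between the ages. None of the helicase activation, polymerase, clamp, repair and G1/S genes at 10 CPM differed by 2-fold, and of 11 licensing genes 1 did, *orc3*, at 29.2 CPM at 72 hpf and 13.1 at 48 hpf. The 7 repair genes had a median log2 ratio of 0.75. After thinning, 4 of 10 repair genes, 3 of 12 licensing genes and 1 of 11 G1/S genes were at least 2-fold higher at 72 hpf, and 1 G1/S gene lower. Over all 6845 genes of the thinned comparison, 1011 were higher and 467 lower. *pcna* was at 911 CPM at 72 hpf and 1165 at 48 hpf, *mcm7* at 114 and 119 CPM, *lig1* at 93.5 and 91.7 CPM, and *rpa2* at 170 and 177 CPM. The exceptions in chromatin assembly were *hells*, at 217 CPM at 72 hpf and 79.4 at 48 hpf (log2 1.45, 1.29 to 1.62), and *slbp*, at 27.9 and 67.4 CPM. The partner of *hells*, *cdca7a*, was at 152 CPM at 72 hpf and 224 at 48 hpf. In nucleotide synthesis 4 of 16 genes were at least 2-fold higher at 72 hpf and 1 lower, beside 11.2% and 4.84% of all genes. Of the 16, 3 reached 10 CPM through the 72 hpf cells alone. In this list *rrm2* was at 145 and 292 CPM and *dck*, a salvage kinase, at 26.4 and 8.54 CPM.

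Other genes separated the ages. *cdkn1a* was at 190 CPM at 72 hpf and 40.1 at 48 hpf (log2 2.25, 2.03 to 2.46), and *fabp11a* at 4660 and 703 CPM (log2 2.73, 2.68 to 2.78). *vcam1b* had the highest ratio of the genes at 50 CPM, at 120 CPM at 72 hpf and 1.54 at 48 hpf (log2 6.29, 5.35 to 7.43), followed by *CR548634.2* (57.6 and 1.37 CPM) and the matrix genes *postna* (112 and 3.93 CPM), *abi3bpb* (332 and 11.8 CPM) and *matn4* (87.1 and 3.76 CPM). The genes with the lowest ratios were *fstl1a* (0.256 CPM, from 1 UMI, at 72 hpf and 120 at 48 hpf, log2 interval -14.17 to -6.39), the Notch target *her15.1* (2.56 and 174 CPM), *si:dkey-28n18.9* (3.59 and 79.9 CPM), *CU570769.1* (4.10 and 72.7 CPM) and *si:ch211-114n24.6* (30.5 and 499.9 CPM). Of 27 endocardial genes, 7 were at least 2-fold higher at 72 hpf, among them *kdrl* (515 and 150 CPM) and *nfatc1* (61.5 and 26.5 CPM). Of the 27, 4 reached 10 CPM through the 72 hpf cells alone and so had to be higher there. Valve interstitial genes were at least 2-fold higher for 7 of 8 and cardiomyocyte genes for 4 of 5, such as *myl7* at 23.8 CPM at 72 hpf and 0.854 at 48 hpf. Of these, 5 of the 8 and 3 of the 5 reached 10 CPM through the 72 hpf cells alone and so had to differ, and whether RNA of those cells in the droplets has a part in these values was not tested.

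Within the 48 hpf library, the S-phase cells differed from its 361 MCM-low cells along the same lists. Of 6199 genes, 485 (7.82%) were at least 2-fold higher and 83 (1.34%) at least 2-fold lower. These groups were also split by their MCM UMIs. All 11 licensing, 17 clamp and 14 chromatin assembly genes at 10 CPM were at least 2-fold higher, as were 7 of 18 growth genes. How many of them reached 10 CPM through the S-phase cells alone, and so had to be higher, was not counted. The 14 licensing genes found summed to 476 CPM in 48 hpf S-phase cells and 57.4 in 48 hpf MCM-low cells. *npm1a* was at 589 CPM in 48 hpf S-phase cells and 224 in 48 hpf MCM-low cells (log2 1.40, 1.28 to 1.52). *histh1l* was at 322 and 1358 CPM (log2 -2.07, -2.15 to -1.99), and *h1-10* at 94.7 and 244 CPM. *fabp11a* was at 703 and 428 CPM (log2 0.72), and *cdkn1a* at 40.1 and 27.0 CPM (log2 0.57, 0.20 to 0.95).

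S-phase cells were found in each of the 7 gene sets called regional here, with 1 cell in the lymphatic set. No position in the heart was measured. The lymphatic set holds genes that the paper links to lymphatic endothelial cells, and whether each set marks endocardium was not tested. A cell had a set with 3 or more UMIs over its genes, and 146 members had none, 215 had 1, 74 had 2 and 19 had 3. S-phase EdCs were 121 of 607 gated cells with *vcam1b*, *basp1* and *loxl1* (19.9%, 16.8 to 23.3), 89 of 443 with *cdh4*, *gstm.3*, *esr1* and *postna* (20.1%, 16.5 to 24.1), and 113 of 579 with the valve genes *has2*, *spp1*, *wnt9b* and *crip1* (19.5%, 16.4 to 23.0). They were 60 of 351 with *aqp8a.1*, *wnt5b* and *gpd1b* (17.1%, 13.3 to 21.5), and 23 of 170 with *cfd*, *c2cd4a* and *emid1* (13.5%, 8.77 to 19.6). These 5 intervals overlap, and thinned to 2500 UMIs, with 2 regional UMIs asked, the shares were 17.1%, 14.7%, 14.8%, 16.0% and 10.5% in the same order. The regional limit and the MCM limit are both set on UMIs of the same cells, and how far depth alters a share within a set was not tested.

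The lymphatic set had the lowest share. At 72 hpf 1 of 82 gated cells with *lyve1a*, *lyve1b* and *flt4* was in S phase (1.22%, 0.0309 to 6.61, or 3.70% thinned), and none was mitotic, with an exact interval up to 4.40%. Thinned, its interval (0.770 to 10.4) overlapped those of the *cfd* set (5.88 to 17.0) and the *lhx8a* set (9.36 to 33.9), and at 8 MCM UMIs per 10000 it overlapped that of the *cfd* set (5.02 to 14.1). At 48 hpf 36 of 113 cells with that set met the S-phase thresholds (31.9%, 23.4 to 41.3). Thinned, 14 of 59 did (23.7%, 13.6 to 36.6). *lyve1a* had no UMI in the S-phase, MCM-low and mitotic cells at 48 hpf, so the set rested on *lyve1b* and *flt4* there and may mark other cells. The set *lhx8a*, *cxcr4a* and *oaz2b* had the highest share, 13 of 55 cells (23.6%, 13.2 to 37.0), in cells with a median of 11088 UMIs. Its mitotic share was 27.3%, against 3.53% to 13.1% in the other sets that had mitotic cells. *lhx8a* itself, a homeobox gene, was at 27.4 CPM in S-phase EdCs, 7.53 in MCM-low cells and 75.2 in mitotic cells, and its log2 ratio to MCM-low cells of 1.86 was 0.72 after matching on UMIs. *angptl7* was at 173 CPM in S-phase EdCs and 86.6 in MCM-low cells (log2 1.00), and at a log2 ratio of -0.11 without the cells with interstitial genes, which it helped to choose.

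**Figure D5:**
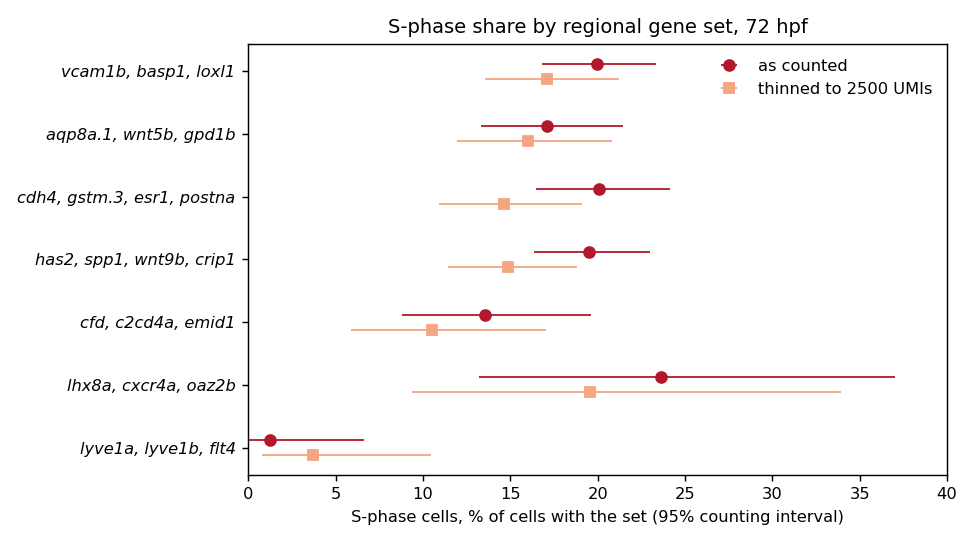
Share of gated 72 hpf cells with each regional gene set (vertical) that were in S phase (horizontal, %), as counted and after thinning to 2500 UMIs, with exact 95% counting intervals. The lymphatic set lies lowest at 1.22%, with an interval (0.0309 to 6.61) below those of the other sets as counted, and the other 6 sets overlap between 13.5% and 23.6%.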

How the data were processed

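Single-cell RNA-seq (10x Chromium 3′ v3.1) was made from sorted cells of dissected zebrafish hearts, 1 library at 72 hpf and 1 at 48 hpf. For each library the authors deposited a sparse matrix of UMI counts, whole numbers that had not been normalized, with its genes and barcodes. The submitters' processing notes name STARsolo, Scanpy and the build danRer11, with no versions or roles, and the filter that chose the deposited cells is not given in the sources used here.

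Counts of gene IDs with the same symbol were added, giving 31323 symbols (546 with several IDs) from 32057 genes. Cells were chosen by the thresholds stated in the report, and no cells were clustered, since the cells were defined by those thresholds. UMIs were summed over the cells of a group and scaled to CPM of all UMIs. Genes outside the 13 rule genes were compared where either group had 10 CPM, and a ratio of at least 2 was counted. With 1 library per age no test was run. Ratios have exact conditional intervals on the counts, CPM exact Poisson intervals and shares exact Clopper-Pearson intervals, all at 95% and for counting error only. For thinning, each cell was reduced to 2500 UMIs. The ratio and interval code was tested on simulated data.

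The members and the 30 gene lists were chosen with earlier results of these data known, and 364 of 384 listed genes were found. Genes were named where they were in the rule or a list, or by size: the 15 largest ratios each way against MCM-low cells and the 5 largest each way in the other comparisons, at 50 CPM and with a UMI in 20% of cells of the higher group. Alternatives varied the thresholds, the reference cells, depth, the CPM minimum, the scaling and the cells left out. Software was Python 3.11.15, numpy 2.4.6, pandas 2.3.3, scipy 1.17.1 and matplotlib 3.10.9. No sequences or genome coordinates were used, and a few listed genes are not reported here.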

Additional observations from a re-analysis of the deposited data

Results flagged for a closer look

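For 3 of the named genes the S-phase cells lay on opposite sides of the MCM-low cells at the 2 ages, each beyond counting error, and the difference between the ages was not tested since there was 1 library per age. The log2 ratio of *hmga1a*, a high-mobility-group gene, was 0.75 (0.67 to 0.84) at 72 hpf and -0.15 (-0.22 to -0.09) at 48 hpf. That of *hmgb2a* was 0.53 (0.48 to 0.59) at 72 hpf and -0.18 (-0.23 to -0.14) at 48 hpf. That of *ccng1*, a cyclin G gene, was 0.30 (0.23 to 0.37) at 72 hpf and -0.18 (-0.24 to -0.13) at 48 hpf. All 6 ratios were under 2-fold.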

How the results depend on the processing

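The number of S-phase EdCs at 72 hpf (454) stayed within 1.5 times under every limit tried, from 326 with *kdrl* in place of *cdh5* to 538 with 4 MCM UMIs. The genes at least 2-fold higher than in MCM-low cells (536) were 162 against cells with 2 to 4 MCM UMIs, 159 at 50 CPM and 4893 with no minimum, and those lower (123) were 46, 28 and 1121. Lower genes were 257 against MCM-low cells matched on UMIs and 236 after thinning. Higher genes made up 81.3% of those counted, 65.5% after matching and 73.2% after thinning. Against mitotic cells, genes higher (417) were 88 at 50 CPM and 785 after thinning, and genes lower (496) were 202 and 746. Between 72 hpf and 48 hpf, genes higher (762) were 158 and genes lower (330) were 155 at 50 CPM. With at least 8 MCM UMIs per 10000, the S-phase share was 14.8% in the *vcam1b* set, 12.3% in the *aqp8a.1* set, 15.1% in the *cdh4* set and 14.2% in the valve set, and after thinning it was 14.7% in the *cdh4* set and 14.8% in the valve set. Against cells with 2 to 4 MCM UMIs the log2 ratio of *lgmn* was 0.28 and that of *lhx8a* -0.47, and without cells of the lymphatic set that of *lyve1a* was 0.25, since the set was chosen by that gene. Of the values of single genes under all alternatives, 2078 were counted as within the counting interval and 437 as moved out of it. A further 3 changed direction, counted only for genes at least 2-fold apart in the main comparison. Changes of direction of smaller ratios are among the 2078 and the 437. Elsewhere the cause was not tested. No paired analysis was possible because there was 1 library per age and no replicate. Depth limits the genes under about 10 CPM, where few UMIs were counted. The pooled UMIs were 3904192 in S-phase EdCs and 10888434 in MCM-low cells, so a given CPM rests on fewer UMIs in S-phase EdCs. Age, library and dissection cannot be told apart.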

Other observations

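Outside the gate, S-phase cells were also counted among the *cdh5* cells with 2 or more UMIs of *alcama*, an adhesion gene that the rule used to leave cells out. At 72 hpf 68 of 619 such cells met the MCM and mitosis limits (11.0%, 8.63 to 13.7, or 8.72% thinned) at a median of 7265 UMIs. At 48 hpf 447 of 1283 did (34.8%, 32.2 to 37.5, or 29.5% thinned) at a median of 10657 UMIs. Among the 72 hpf cells with 5 or more UMIs of *myb*, *coro1a* and *slc4a1a*, 128 of 284 met them (45.1%, 39.2 to 51.1, or 45.8% thinned) at a median of 21663 UMIs.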
